A study of Arabidopsis thaliana with 6 samples.

Results

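In 136 nuclear genes of Arabidopsis thaliana, RNA was spread differently over the transcription start groups of the gene in seedlings labelled as a CPL4 knockdown and in wild type. A start group gathers the transcripts of a gene that begin at 1 annotated position. Its share is its FPKM (fragments scaled by transcript length and library) divided by the sum over the gene's start groups in the same genotype. These FPKM are estimates of how shared fragments divide between transcripts, so a share is not a direct measure of start use. A gene was kept when it had at least 2 start groups, a summed FPKM of at least 5 in both genotypes, and at least 1 start group whose share differed by 25 percentage points or more. These 136 genes hold 338 start groups. They come from 2361 genes with 5305 start groups that met the conditions on number and level, called eligible genes here, and make up 5.76% of them. The whole table lists 38090 start groups of 33552 genes, and 3736 nuclear genes with 8274 start groups have more than 1. The members were chosen by these shares, so the shares and the FPKM behind them are a description and no test was made on them.

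The series asks how salt stress and CPL4 govern a switch between snRNA and mRNA transcription, and the 6 libraries used here cover the genotype. Of these, 3 came from plants carrying an RNA interference construct against CPL4 (the labelled knockdown, CPL4RNAi) and 3 from wild type (Col), all whole 10-day-old seedlings of the Columbia ecotype grown on MS medium with sucrose. No source used here gives the promoter of the construct or the number of independent lines. FPKM were deposited as 1 value per genotype over its 3 libraries, so they carry no spread between replicates, and no source used here gives the library depths. The targeted gene went against the label: CPL4 was at 8.84 FPKM in the labelled knockdown, against 4.92 FPKM in wild type, with q = 6.39e-04 in the authors' deposited table, where q is a p-value adjusted for the number of tests. Whether fragments of the RNA interference construct were counted in the FPKM of CPL4 was not tested. CPL4 has 1 start group and is not among the 136 genes. The whole seedling label was checked on 10 leaf, root and endodermis markers. The leaf markers were abundant in both genotypes, such as RBCS1A at 5823 FPKM in CPL4RNAi and 4637 FPKM in Col, and none of the 4 was called. IRT1 (7.17 FPKM in CPL4RNAi and 2.47 FPKM in Col) and FRO2 (4.81 FPKM in CPL4RNAi and 1.61 FPKM in Col), iron uptake genes of the root, were called higher, and the endodermis genes CASP1 (4.89 FPKM in CPL4RNAi and 8.51 FPKM in Col) and CASP2 (2.14 FPKM in CPL4RNAi and 3.83 FPKM in Col) lower in CPL4RNAi at q under 0.05 in the authors' deposited table. The root transporters PHT1;1 and NRT2.1 were not called, and NRT2.1 was near 0 at 0.210 FPKM in CPL4RNAi and 0.0594 FPKM in Col. In such bulk RNA, fewer cells of a type and less RNA per cell cannot be told apart, and the part of these marker differences in the start group shares was not tested.

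Many plant genes can begin transcription at more than 1 position, and the choice sets the 5′ leader of the messenger RNA and sometimes its coding start, and with it the targeting of the protein. RNA polymerase II finds its start through core promoter elements such as the TATA box, and the phosphorylation of its C-terminal domain, which CPL4 and related phosphatases reverse, accompanies its passage from initiation to termination. Most plant snRNA genes are read by the same polymerase from a promoter made of a TATA box and an upstream sequence element, with a 3′ end formed soon after the mature snRNA.

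The sequences below lie at or before annotated starts of 4 genes that the results return to, chosen because LAF3 and AT4G23420 hold the snRNA upstream element and share their locus with an snRNA, EER4 is the gene with opposite calls on its start groups, and LSM1B has widely spaced starts. They are RefSeq sequence of assembly TAIR10.1, printed 5′ to 3′ on the strand of the gene, with TATAAA and the 10-letter core of the upstream element, spelled out in the line of AT4G23420, in capitals. Those of LAF3 (chr3:20725894-20725993, minus strand), EER4 (chr1:5987935-5988034, minus strand) and LSM1B (chr3:4667208-4667307 and chr3:4668230-4668329, plus strand) are the 100 bases before a start, and that of AT4G23420 (chr4:12225526-12225555, plus strand) is the element with 10 bases on each side.
LAF3, before its first start: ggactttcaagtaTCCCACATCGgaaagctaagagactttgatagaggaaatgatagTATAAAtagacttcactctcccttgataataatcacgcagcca
AT4G23420, element: taatcgcttcTCCCACATCGgaagtttgag
EER4, before its first start: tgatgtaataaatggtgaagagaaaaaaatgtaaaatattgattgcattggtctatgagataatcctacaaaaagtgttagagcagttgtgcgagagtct
LSM1B, before its first start: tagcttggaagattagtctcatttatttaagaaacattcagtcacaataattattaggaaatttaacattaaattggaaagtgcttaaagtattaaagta
LSM1B, before its last start: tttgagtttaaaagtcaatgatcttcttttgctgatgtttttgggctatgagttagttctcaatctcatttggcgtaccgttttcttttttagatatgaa
In LAF3, the element begins 87 bp and TATAAA 43 bp before the first annotated start. In AT4G23420, the element begins 32 bp before the second of 4 annotated starts and 71 bp before the fourth. Each element also lies before the first base of the snRNA that shares the locus, on the same strand. That of LAF3 spans chr3:20725971-20725980, and the snRNA atU5.1b begins at chr3:20725902 on the minus strand. That of AT4G23420 spans chr4:12225536-12225545, and the snRNA atU1-2 begins at chr4:12225611 on the plus strand. The windows of EER4 and LSM1B hold neither string in the gene's orientation, which says only that these letters are not there. The last start of LSM1B is 1022 bp after its first and has a coding start of its own in RefSeq. The deposited table gives a locus per gene and no position per start group, so no start group could be assigned to 1 of these annotated starts. RefSeq starts and deposited start groups can also differ in number, as in LAF3 with 4 starts and 2 groups.

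Share differences of this size were uncommon among eligible genes. The largest share difference of a gene had a median of 4.00 percentage points over the 2361 eligible genes, 75% of them were at or below 10.07 points and 90% at or below 18.99 points. Among the 136 genes it ran from 25.01 to 68.1 points with a median of 32.8 points, and it reached 50 points in 17 genes. There were 35 genes in the 2.5 points above the threshold and 28 in the 2.5 points below it, so no gap separates the members from the rest. The genes just inside were AT5G63370 (25.01 points), TRB1 (25.2), AT3G11850 (25.2), PUR5 (25.3) and TPL (25.5), and those just outside were AAT (24.9), SULTR1;2 (24.9), SCPL51 (24.6), AT1G29120 (24.4) and AT5G53420 (24.3).

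**Figure D1:**
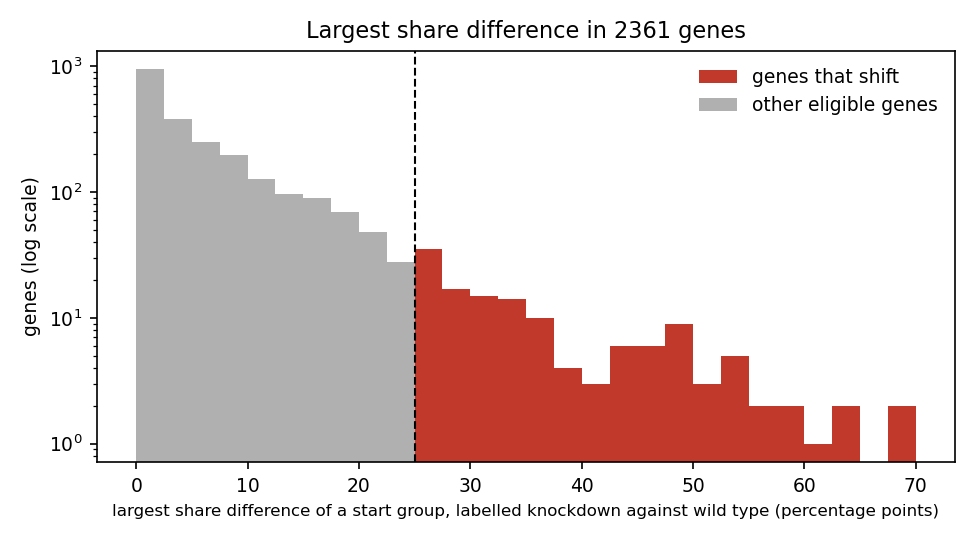
Number of eligible genes (log scale) by the largest share difference of any of their start groups between the labelled knockdown and wild type, in bins of 2.5 percentage points. The 136 genes at or beyond the dashed line at 25 points are in red, the others in grey, and no gap in the counts marks the line.

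In most of the 136 genes the genotypes differed in which start group was largest. In 78 genes the start group with the largest share in the labelled knockdown was not the one with the largest share in wild type, which was so in 186 of the 2361 eligible genes (7.88%), the 78 included. The rule favours such a change by keeping large share differences, so nothing is read from this contrast. In 65 of the 78 the leading group held over 50% in each genotype. In the other 58 genes the same group led in both. The leading group held the larger share in the labelled knockdown in 63 genes and in wild type in 73. In 37 genes, 34 of them among the 78, the gaining group was at least 2-fold higher and the losing group at least 2-fold lower. These folds compare FPKM in the labelled knockdown with wild type. The same count over eligible genes gave 4.96%. Whether that count took in genes with a start group that had no FPKM in either genotype was not tested. Nothing is read from the 4.96% for that reason.

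The 25 largest shifts include the following 6 genes. AHBP-1B, also known as TGA2, a bZIP factor of salicylic acid signalling, had the largest shift: 1 start group stood at 5.23 FPKM in the labelled knockdown, against 0.196 FPKM in wild type, and the other at 2.15 FPKM in CPL4RNAi and 6.90 FPKM in Col. The group with 97.2% of AHBP-1B RNA in wild type thus held 29.1% in the labelled knockdown, while the gene's sum was 7.38 FPKM in CPL4RNAi and 7.10 FPKM in Col. PPR596, a pentatricopeptide repeat protein of the class that acts on organelle RNA, had 3 groups, and 1 of them held 96.6% in the labelled knockdown, against 29.0% in wild type. LSM1B, a subunit of the cytoplasmic LSM complex that promotes decapping of messenger RNA, had 95.3% in CPL4RNAi and 41.5% in Col in its gaining group, 6.53 FPKM in CPL4RNAi and 2.64 FPKM in Col. MBD02, a methyl-CpG-binding domain protein, had 69.9% in CPL4RNAi and 26.5% in Col in its gaining group. MBR1, a RING protein that targets the Mediator subunit MED25, had 4 groups, of which 1 was at 6.77 FPKM in the labelled knockdown, against 0.313 FPKM in wild type. AT5G46780, a VQ motif protein, had 66.8% in CPL4RNAi and 17.9% in Col. In each of these 6 genes the leading start group differed between the genotypes.

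EER4 was the gene with calls in both directions. It encodes a TAF12-like subunit of the general transcription factor TFIID that is required for normal ethylene responses. Its start group TSS25095 was at 10.3 FPKM in the labelled knockdown, against 2.99 FPKM in wild type, with q = 0.0167 in the authors' deposited table. Its start group TSS2530 was at 1.66 FPKM in the labelled knockdown, against 8.11 FPKM in wild type, with q = 0.00873 in the authors' deposited table. The gene as a whole was at 11.97 FPKM in the labelled knockdown, against 11.10 FPKM in wild type, with q = 0.650 in the authors' deposited table. EER4 RNA was thus 86.1% in TSS25095 in the labelled knockdown, against 27.0% in wild type. RefSeq gives EER4 2 starts 163 bp apart with 1 coding start, and the first of them follows the EER4 sequence printed above.

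Enzymes and transporters were also among the largest shifts. TSD2, a methyltransferase needed for pectin and cell adhesion, had a start group at 14.6 FPKM in the labelled knockdown, against 0.0787 FPKM in wild type, and another at 8.59 FPKM in CPL4RNAi and 25.9 FPKM in Col. HCS1, the enzyme that attaches biotin to carboxylases in chloroplast and cytosol, had 99.9% of its RNA in 1 group in the labelled knockdown, against 43.7% in wild type. Both genes have 2 annotated starts in RefSeq, 15 bp apart in TSD2 and 14 bp apart in HCS1, which is far less than the 100 bp read length. ATSPS4F, a sucrose-phosphate synthase, had 93.3% in CPL4RNAi and 45.0% in Col in its gaining group, 23.7 FPKM in CPL4RNAi and 9.66 FPKM in Col. AT2G19940, annotated as an N-acetyl-gamma-glutamyl-phosphate reductase of arginine synthesis, had 77.5% in CPL4RNAi and 21.0% in Col. The gaining group of AT4G26210, a mitochondrial ATP synthase subunit G, was at 3.86 FPKM in the labelled knockdown, against 0.549 FPKM in wild type. That of AT5G55290, a subunit E of the vacuolar-type ATPase, held 49.6% in CPL4RNAi and 0.00256% in Col. AT3G01590, a galactose mutarotase-like protein, had a group at 6.62 FPKM in the labelled knockdown that was at 9.96e-04 FPKM in wild type. AT4G22120, a membrane protein of the ERD family, was spread over 6 groups in wild type, the largest with 27.1%. In the labelled knockdown, 1 group held 67.8%.

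Other genes complete the 25 largest shifts. RHB1A, a RING-H2 finger protein, had 1 group at 0.00126 FPKM in the labelled knockdown, against 3.56 FPKM in wild type. BPS1, which restrains a root-derived signal that arrests the shoot, was the most abundant of the 25, with 57.5 FPKM in CPL4RNAi and 23.0 FPKM in Col in 1 group and 8.004 FPKM in CPL4RNAi and 34.6 FPKM in Col in the other. LAF3, needed for full phytochrome A signalling, is described with the snRNA below. The gaining groups of AT1G66330, AT5G25360, AT5G57300, AT2G41705, AT5G57700, AT1G05320 and AT1G15860 held between 50.2% (AT1G15860) and 98.8% (AT1G05320) in the labelled knockdown, against between 0.764% (AT1G66330) and 50.3% (AT1G05320) in wild type. AT1G66330 had the largest difference of these, with 20.6 FPKM in the labelled knockdown, against 0.173 FPKM in wild type, in its gaining group. In none of the 25 except EER4 did the authors' deposited table call a start group at q under 0.05.

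**Figure D2:**
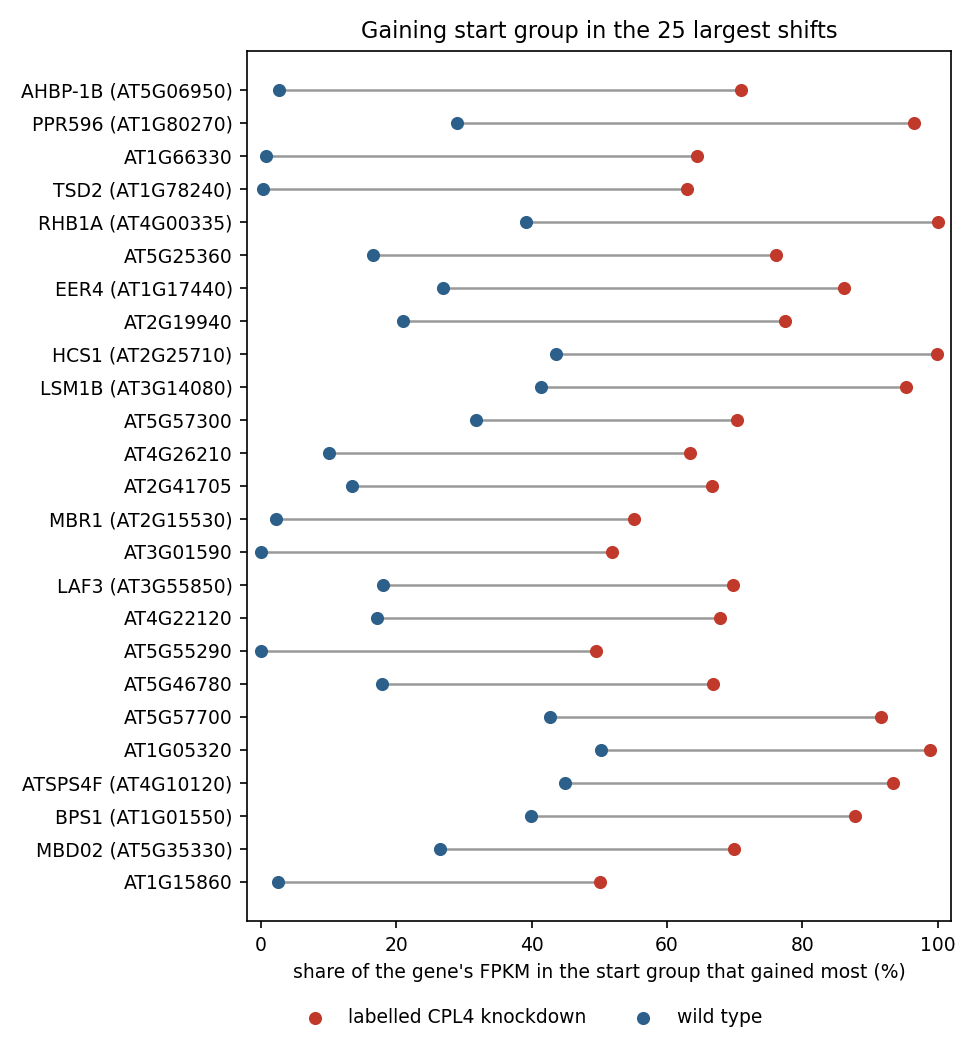
Share (%) of each gene's FPKM in the start group that gained most in the labelled CPL4 knockdown (red) and the same group in wild type (blue), for the 25 genes with the largest share differences, largest at the top. The red point lies right of the blue one by construction, and the gap is widest at 68.1 percentage points in AHBP-1B and narrowest at 38.6 in AT5G57300, where the start group with the largest difference is a losing one.

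The authors' own test called few of these start groups. Of the 338, 314 were tested and 15 were called at q under 0.05 in the authors' deposited table, which is 4.78%, against 17.5% of all 20159 tested start groups and 7.79% of the 4211 tested ones of eligible genes. The rule used the same contrast, so nothing is read from these shares. Of the 15, in 14 genes, 6 were higher in the labelled knockdown (10.2% of all tested start groups were) and 9 lower (7.34%). At q under 0.01 it called 6 of them, beside 10.7% of all tested start groups. The other 24 start groups of the 338 carried no test, 2 of them listed at 0 in both genotypes.

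Beside EER4, the called groups belong to 13 genes, of which CPSF73-I and AT4G23420 are described further on. CNX2, an enzyme of molybdenum cofactor synthesis, had a called group at 7.38 FPKM in the labelled knockdown, against 3.16 FPKM in wild type (q = 0.00411 in the authors' deposited table). The protein kinase Kin3 had a called group at 9.08 FPKM in the labelled knockdown, against 4.16 FPKM in wild type (q = 0.0142 in the authors' deposited table). AT5G63370, a protein kinase, had 27.99 FPKM in CPL4RNAi and 5.57 FPKM in Col (q = 7.81e-04) and SDR1, a short-chain dehydrogenase/reductase, 14.02 FPKM in CPL4RNAi and 7.03 FPKM in Col (q = 0.0402) in the authors' deposited table. Among the lower ones was ARF11, an auxin response factor, whose group TSS27852 was at 4.41 FPKM in CPL4RNAi and 14.8 FPKM in Col (q = 7.81e-04 in the authors' deposited table). SK42, a shaggy-like kinase, had 3.20 FPKM in CPL4RNAi and 9.02 FPKM in Col (q = 0.00502), and GGH1, a gamma-glutamyl hydrolase of folate metabolism, 6.26 FPKM in CPL4RNAi and 15.1 FPKM in Col (q = 0.0106), in the authors' deposited table. BPC4, a GAGA-binding factor, BMY2, a beta-amylase-like nuclear protein, ATBRXL2 and AT5G19130 had called groups that were lower in the labelled knockdown by between 1.73-fold (AT5G19130) and 1.84-fold (ATBRXL2), per the authors' deposited table. Each of the 13 genes had 1 called start group and no more.

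The level of the gene differed little in most members. The summed FPKM of the 136 genes had a median of 10.17 in the labelled knockdown and 10.09 in wild type, and ran from 5.01 to 244 in the labelled knockdown and from 5.04 to 293 in wild type. The gene's FPKM lay within 1.5-fold between genotypes in 122 of 136 genes (89.7%), against 91.6% of the other eligible genes, and the median log2 ratio of labelled knockdown over wild type was −0.02 in both sets. At the level of genes, 28 of the 136 were called at q under 0.05 in the authors' deposited table, which is 20.6%, against 22.5% of all tested genes and 21.8% of eligible genes. Of the 28, 15 were higher in the labelled knockdown (12.7% of all tested genes were) and 13 lower (9.78%). Among them, ARF11 was at 9.81 FPKM in the labelled knockdown, against 16.3 FPKM in wild type (q = 6.39e-04 in the authors' deposited table), and it lost from the group that had held 90.7%. ZEU1, a thymidylate kinase of nucleotide synthesis with a mitochondrial and a shorter form, was at 6.88 FPKM in CPL4RNAi and 12.2 FPKM in Col (q = 6.39e-04 in the authors' deposited table). RefSeq gives ZEU1 3 starts with 3 coding starts, and its gaining group held 61.6% in the labelled knockdown, against 27.2% in wild type. ZEU1, chosen after its values were seen, is given because its forms differ in where the protein goes. No start group of ZEU1 could be assigned to a form, and whether the targeting of the protein differed was not tested.

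Some start groups were listed at almost nothing in 1 genotype. Of the 338, 7 groups in 6 genes had at least 1 FPKM in the labelled knockdown and under 0.01 FPKM in wild type, and 17 groups in 17 genes showed the reverse. Over the 5305 start groups of eligible genes the counts were 49 (0.924%) and 46 (0.867%). Those seen in the labelled knockdown belong to PYM, AT3G01590, GRX4, MSL10 (2 groups), AT5G55290 and AT5G61310. PYM, a partner of the exon junction proteins Y14 and MAGO, had 2.09 FPKM in such a group in the labelled knockdown, against 1.53e-04 FPKM in wild type. GRX4, a monothiol glutaredoxin, had 4.04 FPKM in CPL4RNAi and 0.00110 FPKM in Col. MSL10, a mechanosensitive channel, had 1.69 FPKM in CPL4RNAi and 0.00245 FPKM in Col in 1 group and 1.08 FPKM in another that was listed at 0 in wild type. Among the 17 of wild type, MLO1, a membrane protein of the powdery mildew susceptibility family, had 0.00402 FPKM in the labelled knockdown, against 6.22 FPKM in wild type. RAD23B, a carrier of ubiquitinated proteins to the proteasome, had 4.69e-05 FPKM in CPL4RNAi and 2.74 FPKM in Col. None of these 24 groups was called at q under 0.05 in the authors' deposited table, but 1 of them, the MSL10 group listed at 0 in wild type, carried no test. FPKM of start groups are estimates of how shared fragments divide between transcripts, at these values as at higher ones. Whether the groups were silent was not tested.

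The share of genes that shifted was lower in classes of higher FPKM. It was 10.3% (62 of 601) at a mean summed FPKM of 5 to 10, 6.78% (54 of 796) at 10 to 20, 2.41% (15 of 623) at 20 to 50, 2.07% (4 of 193) at 50 to 100, and 0.676% (1 of 148) at 100 or more. The median of the largest share difference was 6.61 points in the lowest class and 0.979 points in the highest. Genes with 2 start groups shifted in 4.67% (89 of 1907), those with 3 in 9.17% (33 of 360) and those with 4 in 15.9% (11 of 69). Beyond that the classes are small, with 1 of 17 genes of 5 groups, 2 of 6 genes of 6 groups and 0 of 2 genes of 7 groups. Lower genes rest on fewer fragments, and the part of counting error in their shares was not tested.

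**Figure D3:**
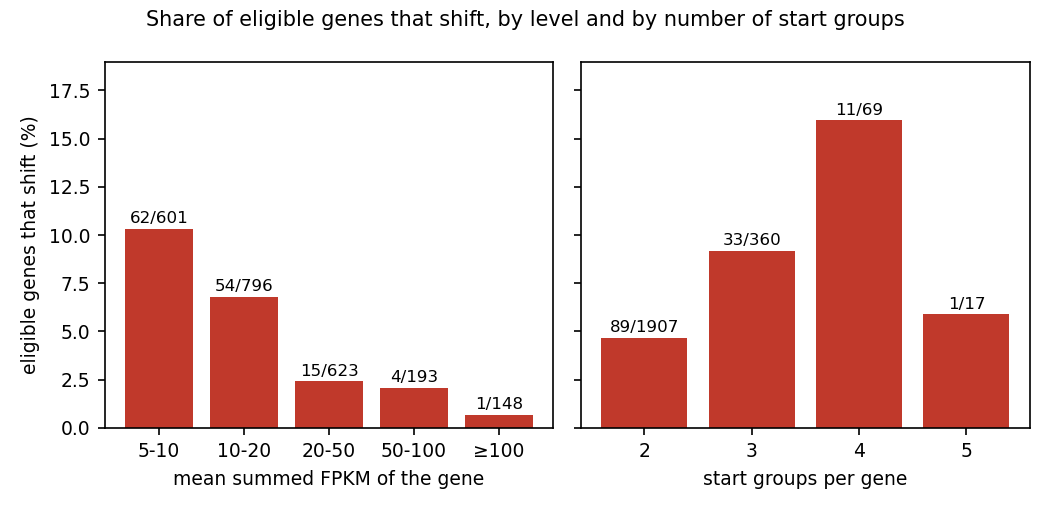
Percent of eligible genes that shift, by the mean of the 2 genotypes' summed FPKM (left) and by the number of start groups per gene (right, up to 5 groups), with genes that shift over eligible genes above each bar. The percentage goes down from 10.3 in the lowest class of FPKM to 0.676 in the highest, and is 4.67 with 2 start groups and 15.9 with 4.

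Of the 10 members with the highest FPKM averaged over the genotypes, BPS1, AT5G63370 and AT4G23420 are described elsewhere. AT4G23420 is among the 10 through wild type, with a sum of 9.37 FPKM in CPL4RNAi and 50.3 FPKM in Col. UBC10, a ubiquitin-conjugating enzyme and the gene of this set with the highest FPKM, had 3 start groups, at 118, 106 and 19.5 FPKM in the labelled knockdown, against 199, 42.3 and 51.7 FPKM in wild type. Only the middle one was higher in the labelled knockdown, and it held 43.4% of UBC10 RNA, against 14.4% in wild type. LAP1, a leucine aminopeptidase, had 53.1 and 43.1 FPKM in the labelled knockdown, against 17.3 and 51.5 FPKM in wild type. JAL33, a jacalin-like mannose-binding lectin, had a group at 23.5 FPKM in the labelled knockdown, against 1.48 FPKM in wild type, while its sum was 57.4 FPKM in CPL4RNAi and 59.2 FPKM in Col. AT1G08110, a glyoxalase I family gene, had 27.1 FPKM in CPL4RNAi and 10.5 FPKM in Col in its gaining group and 17.5 FPKM in CPL4RNAi and 32.4 FPKM in Col in its losing group. OEP16-3, of the Tim17/Tim22/Tim23 family of membrane translocases, had 29.2 FPKM in CPL4RNAi and 16.2 FPKM in Col, and 5.45 FPKM in CPL4RNAi and 18.4 FPKM in Col. TPL, the corepressor TOPLESS of auxin and other hormone pathways, had 14.5 FPKM in CPL4RNAi and 3.41 FPKM in Col in its gaining group, and BPC4 had 12.4 FPKM in CPL4RNAi and 4.48 FPKM in Col. None of the start groups of UBC10, LAP1, JAL33, AT1G08110, OEP16-3 and TPL was called at q under 0.05 in the authors' deposited table.

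Members lay near snRNA regions in 5 cases. The deposited coverage table gives summed read depth per library, unscaled, for 75 snRNA regions and for the 50 bp that follow each, called extensions. Of the 136 genes, 5 (3.68%) had such a region within 2 kb of their locus in deposited coordinates (TAIR10), against 7 of the other 2225 eligible genes (0.315%), whose largest share differences ran from 0.454 points in SGT1A to 9.82 points in AT1G16810. A region overlapped the locus in AT1G16810 of the others, and in LAF3, AT4G23420 and MBR1 of the members. In all, 12 eligible genes are few, and no test was made on this split. Summed over all 75 snRNA regions, depth was 1552609, 2880572 and 274395 in the labelled knockdown, against 2179594, 7534954 and 4820223 in wild type, and the genotypes overlap. Summed over all extensions, depth was 49756, 83406 and 9016 in the labelled knockdown, against 721, 801 and 1003 in wild type, with no overlap. One region, atU5-13, held most of this depth in labelled knockdown libraries 1 and 2: without it the extensions summed to 15106, 20906 and 9016 in the labelled knockdown, against 671, 801 and 1003 in wild type, still with no overlap.

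LAF3 (AT3G55850) starts inside an snRNA. Its locus, chr3:20721720-20725893 on the minus strand, begins 9 bp after the first base of atU5.1b (chr3:20725777-20725902, minus strand), a U5 snRNA of the spliceosome. One start group of LAF3 was at 7.65 FPKM in the labelled knockdown, against 1.02 FPKM in wild type, and the other at 3.32 FPKM in CPL4RNAi and 4.61 FPKM in Col, so that the gaining group held 69.7% in the labelled knockdown, against 18.1% in wild type. The gene was at 10.96 FPKM in the labelled knockdown, against 5.63 FPKM in wild type, with q = 6.39e-04 in the authors' deposited table, while neither start group was called (q = 0.0955 and 0.470 in the authors' deposited table). Depth over atU5.1b was 735, 1055 and 659 in the 3 libraries of the labelled knockdown, against 8621, 7504 and 7703 in wild type. Every library of the labelled knockdown lay below every library of wild type there. How many of the 75 snRNA regions separate the genotypes in this way is not given here. Depth over its extension was 119, 0 and 161 in the labelled knockdown, against 50, 0 and 0 in wild type, and these overlap. The RefSeq starts of LAF3 span 315 bp over 4 positions with 4 coding starts.

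AT4G23420, an oxidoreductase of the Rossmann-fold superfamily, holds the snRNA atU1-2 in its locus. The locus, chr4:12225515-12228718 on the plus strand, begins 96 bp before the first base of atU1-2 (chr4:12225611-12225776, plus strand). Its largest start group fell to 5.07 FPKM in the labelled knockdown, against 48.5 FPKM in wild type, with q = 7.81e-04 in the authors' deposited table. The other groups were at 3.23 FPKM in CPL4RNAi and 1.25 FPKM in Col, and at 1.06 FPKM in CPL4RNAi and 0.503 FPKM in Col. The leading group thus held 54.2% in the labelled knockdown, against 96.5% in wild type. Depth over atU1-2 was 12031, 16391 and 5094 in the labelled knockdown, against 6874, 294686 and 16876 in wild type, and the groups overlap. Depth over its extension was 420, 324 and 273 in the labelled knockdown, against 0, 0 and 56 in wild type, with no overlap. The sum over all extensions showed no overlap either. Whether fragments of the snRNA were counted in the FPKM of this gene or of LAF3 was not tested.

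**Figure D4:**
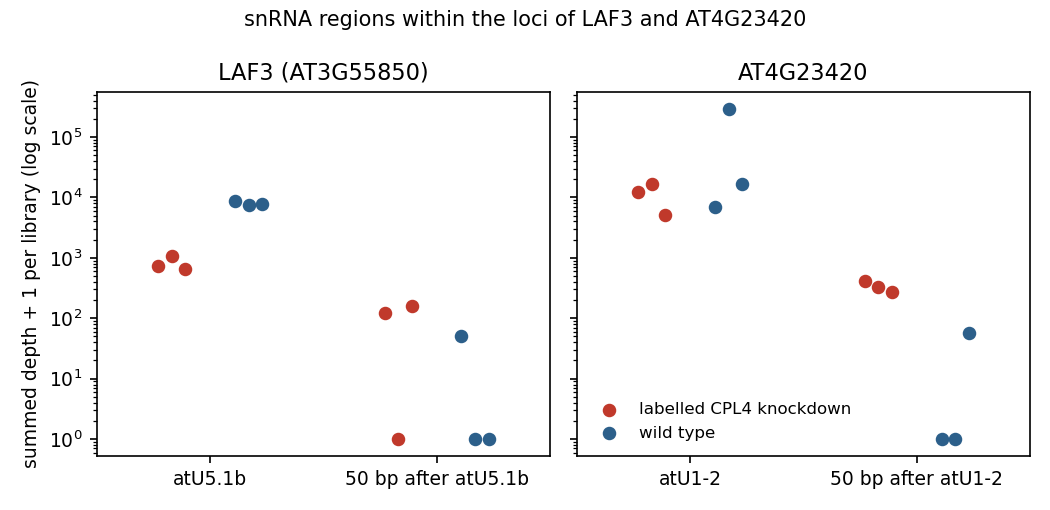
Summed read depth + 1 (log scale) in each library over the snRNA inside or at the edge of LAF3 (left) and AT4G23420 (right), and over the 50 bp after it, with the labelled CPL4 knockdown in red left of wild type in blue; points at 1 are libraries at 0. atU5.1b is lower in all 3 libraries of the labelled knockdown (659 to 1055, against 7504 to 8621 in wild type), and the extension of atU1-2 is higher in them (273 to 420, against 0 to 56 in wild type). How many other regions or extensions separate the genotypes is not given here.

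The other 3 genes have their snRNA elsewhere. AT1G08110 lies on the opposite strand from atU1-5/U1A, which lies 145 bp past the last base of its locus, and the extension of that snRNA, which runs towards the gene, had depth 3073, 5679 and 1265 in the labelled knockdown, against 9, 0 and 0 in wild type. ARP9, an actin-related protein gene, ends 1431 bp before atU11, whose extension had depth 348, 349 and 50 in the labelled knockdown, against 0 in each library of wild type. ARP9 itself was at 5.09 FPKM in the labelled knockdown, against 8.80 FPKM in wild type (q = 6.39e-04 in the authors' deposited table), and 1 of its 2 start groups was at 0.343 FPKM in CPL4RNAi and 3.49 FPKM in Col. MBR1 holds atU6-7 4822 bp after its first base, and both the snRNA and its extension were at 0 in every library.

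Promoter windows were searched for 4 strings. Each gene had a single window, from 250 bases before to 50 after its first RefSeq start, searched on both strands. Later starts had no window of their own. TATAAA was found in 71 of the 136 genes (52.2%), against 50.4% of other eligible genes and 52.1% of all 27444 protein-coding nuclear genes. The G-box CACGTG was in 10 of the 136 (7.35%), against 9.71% of other eligible genes and 7.68% of all genes. The evening element AAAATATCT was in 4 of the 136 (2.94%), against 3.51% of other eligible genes and 2.82% of all genes. The core of the snRNA upstream element, the 10 letters in capitals in the AT4G23420 line above, was in 2 (1.47%), LAF3 and AT4G23420, against 0 of 2225 other eligible genes and 35 of all genes (0.128%). Both matches of the upstream element lie before the snRNA that shares the locus, on its strand. This count and the nearness to an snRNA region are thus not separate observations for these 2 genes. A match is not a site, and no test was made on these shares.

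Gene structure was set beside that of the other eligible genes. RefSeq gives 130 of the 136 (95.6%) at least 2 annotated starts, against 95.1% of the others. The distance from the first to the last start had a median of 128 bp in the members, against 109 bp in the others. All starts lay within 50 bp in 22 of these 130 genes (16.9%), against 24.5% of the others, and within 100 bp, the read length, in 51 (39.2%), against 44.0% of the others. A gene with more than 1 coding start made up 45 of 135 coding members (33.3%), against 31.0% of the others. GLR3.4, a glutamate receptor-like channel reported in plastid and plasma membrane, has 6 starts before 1 coding start, and had 10.4 FPKM in its gaining group in the labelled knockdown, against 2.51 FPKM in wild type. The locus had a median length of 2802.5 bp in the members, against 2966 bp in the others, and 23 loci of members (16.9%) overlapped another locus, against 19.1% of the others. In AT2G09795 alone the RefSeq product is not a protein.

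Few members were on the lists of RNA, light and stress genes. The 10 lists hold 65 eligible genes, and 1 of them, CPSF73-I, shifts (1.54%, against 5.76% of eligible genes). The lists were not matched for FPKM, and the share that shifts ran from 10.3% in the lowest class of FPKM to 0.676% in the highest. CPSF73-I is the subunit that cuts messenger RNA precursors before polyadenylation. Its start group TSS13429 was at 11.6 FPKM in the labelled knockdown, against 4.45 FPKM in wild type, with q = 0.0182 in the authors' deposited table, and held 61.5% in CPL4RNAi and 29.2% in Col; RefSeq places its 2 starts 6 bp apart. Of the list of 3′ end processing, 8 genes were eligible, and CPSF73-I was the 1 that shifts, with a median largest difference of 4.95 points over the 8. None shifts of 14 eligible genes of the splicing list, 11 of the aminoacyl-tRNA synthetase list, 9 of light signalling and 6 of the clock. The same holds for 6 of the ABA, drought and salt list, 6 of photosynthesis, 3 of the polymerase and its phosphatases and kinases, and 2 of silencing. The list of rapid stress factors had no eligible gene. The closest of these was the phytochrome-interacting factor PIF3, at 21.9 points. The medians of the largest difference ran from 6.95e-04 points in the aminoacyl-tRNA synthetase list to 10.98 points in the ABA, drought and salt list, beside 4.00 points over all eligible genes. The synthetase list was drawn by product name and can hold proteins that are not synthetases. In the ABA, drought and salt list, the symbol RAB18 was matched to AT1G43890 (18.9 points), a small GTPase gene and not the dehydrin of that name. Its value is part of that list's median.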

How the data were processed

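Total RNA was rRNA-depleted, amplified as cDNA (SMARTer) and sequenced as 100 bp pairs, per the labels' protocols. The submitters' processing notes list TAIR10 and, among the tools, Cuffdiff 2.2.1.3, SAMtools, TopHat2 2.0.14, Trim Galore 0.4.0 and CASAVA 1.8.2. No source used here says whether strand was marked or how reads with several origins were treated. For each gene and start group the authors deposited 1 FPKM per genotype, a q-value and a p-value. The deposited signal over snRNA regions is the sum of per-base depth in each library, with no scaling.

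Shares, folds and counts were computed from the deposited FPKM in Python 3.11.15 with pandas 2.3.3 and numpy 2.4.6; figures used matplotlib 3.10.9. No pseudocount was added, no test was made, and the authors' q under 0.05 was taken as deposited. In 2360 of 2361 eligible genes the start groups summed to within 0.1% of the gene's deposited FPKM in both genotypes. RefSeq TAIR10.1 gave names, strands, annotated starts and sequences (read with pysam 0.24.0), and all 2361 eligible genes were matched by locus. Distances to snRNA regions use deposited coordinates alone, counted from 1. Of 257 list symbols, 244 were matched.

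The genes named are the 25 largest shifts, 5 on each side of the threshold, those on a list, those within 2 kb of an snRNA region, the 10 with the highest FPKM, and those with called start groups. Genes of start groups near 0, ZEU1 and GLR3.4 were named after their values were seen. The genes and lists were chosen with earlier results of these data known. The labels call the 3 samples of a genotype biological triplicates.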

Additional observations from a re-analysis of the deposited data

How the results depend on the processing

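Counts of genes followed the thresholds. At a share difference of 0.20 or more there were 212 genes with 525 start groups, and at 0.30 or more 84 genes with 209. With a summed FPKM of at least 1 there were 341 genes, 815 start groups and 184 genes whose largest group differed; with at least 10 there were 58, 153 and 33; with no filter there were 480, 1120 and 266. With 1 FPKM added to each start group, 84 genes with 205 start groups were left, all among the 136, and each of the 25 largest shifts stayed above 25 points. At q under 0.01 in the authors' deposited table, 6 start groups were called in place of 15. The median log2 ratio of gene FPKM was −0.0220 on the log2(FPKM + 1) scale and −0.0191 with a summed FPKM of at least 10. Keeping genes whose start groups were all tested (114 genes), shares over the deposited gene FPKM (136) and loci that overlap no other (113) left the counts within 1.5 times. No paired analysis was possible because the FPKM are 1 value per genotype, and for that reason leaving out a replicate was not run.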
